A study of Mus musculus with 7 samples.

Results

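The transcripts of 7 genes of the junctions that hold epithelial cells together were followed through a course of experimental colitis in the mouse colon. They were chosen by symbol: Ocln, Cdh1, Cldn2, Cldn3, Cldn4, Cldn7 and Tjp1. All 7 were on the array, through 9 of its 12488 probe sets, and all 7 were among the 4316 of 8251 measured genes that reached a signal of 100 in at least 1 RNA pool. Each gene was read from its brightest probe set (Ocln 92907_at, Cdh1 98140_at, Cldn2 93934_at, Cldn3 94493_at, Cldn4 101410_at, Cldn7 99561_f_at and Tjp1 99935_at), and the other probe sets, of Cldn3 and Tjp1, are described with those genes.

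The mice were female and of the outbred CD-1 stock, aged 10 to 12 weeks at the start, and each received 6 enemas. TNBS, which attaches to proteins of the bowel wall and makes them targets of the immune system, was given in ethanol, and the control mice received saline. The sources used here describe no group with ethanol alone, so a TNBS pool differs from a saline pool in both agents. RNA came from colon 4 ± 0.5 cm above the anus and was pooled over the mice of a group before hybridisation. The TNBS-w6 pool held 6 mice killed 3 days after the last enema, the TNBS-w8 pool 4 mice at 2 weeks, the TNBS-w10 pool 5 mice at 4 weeks and the TNBS-w12 pool 4 mice at 6 weeks. The Saline-w6 pool held 5 mice and was hybridised on 2 arrays. The Saline-w10 pool held 4 mice, 2 from week 8 and 2 from week 10, and it served as the control of the 3 later TNBS pools, which therefore share it. Every group was a single pool, so the spread between mice is not known, and only the repeat array of Saline-w6 gives an error, which is a technical one.

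Tight junctions seal the gap between neighbouring epithelial cells and set which ions and solutes pass between them. Claudins are membrane proteins that form the strands of the seal, and some of them form pores in it. Occludin is a second membrane protein of the strands, and ZO-1, encoded by Tjp1, ties the strands to the actin cytoskeleton. Just below lies the adherens junction, where E-cadherin, encoded by Cdh1, binds E-cadherin of the next cell and holds catenins on its inner side. In the colon these proteins form the barrier between the gut contents and the immune cells of the mucosa.

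Correlations between arrays were 0.952 to 0.987 over log2 probe set values. The median probe set signal was 51.8 in TNBS-w8 and 53.2 in TNBS-w10, and between 56 and 61.2 on the other arrays. RNA quality can be read from beta-actin as the signal at the 3' end over that at the 5' end, which lay between 1.14 and 1.24 for the 3 arrays of week 6 and between 0.798 and 0.818 for the 4 later ones. For Gapdh the early arrays (0.912 to 0.942) lay within the range of the later ones (0.869 to 1.00). The tissue label was checked with a choice of bright epithelial markers: Krt8, Krt19, Krt20 and the colonocyte enzyme Car1 read 1156 or more on every array. Not every epithelial marker did so. Vil1 read between 642.9 and 1155.6, Fabp2 between 241.2 and 2102.2, and Mep1a between 114 and 225.4. Guca2a, another colonocyte marker, read 24.6 or less on every array. The level of a gene in such bulk RNA depends both on how many cells of a type the tissue holds and on how much RNA each carries, and these cannot be told apart. Signal is given in the units of the authors' software, and values are compared between arrays for 1 gene, never between genes. Differences are log2 values after raising signals under 50 to a floor of 50.

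**Figure D1:**
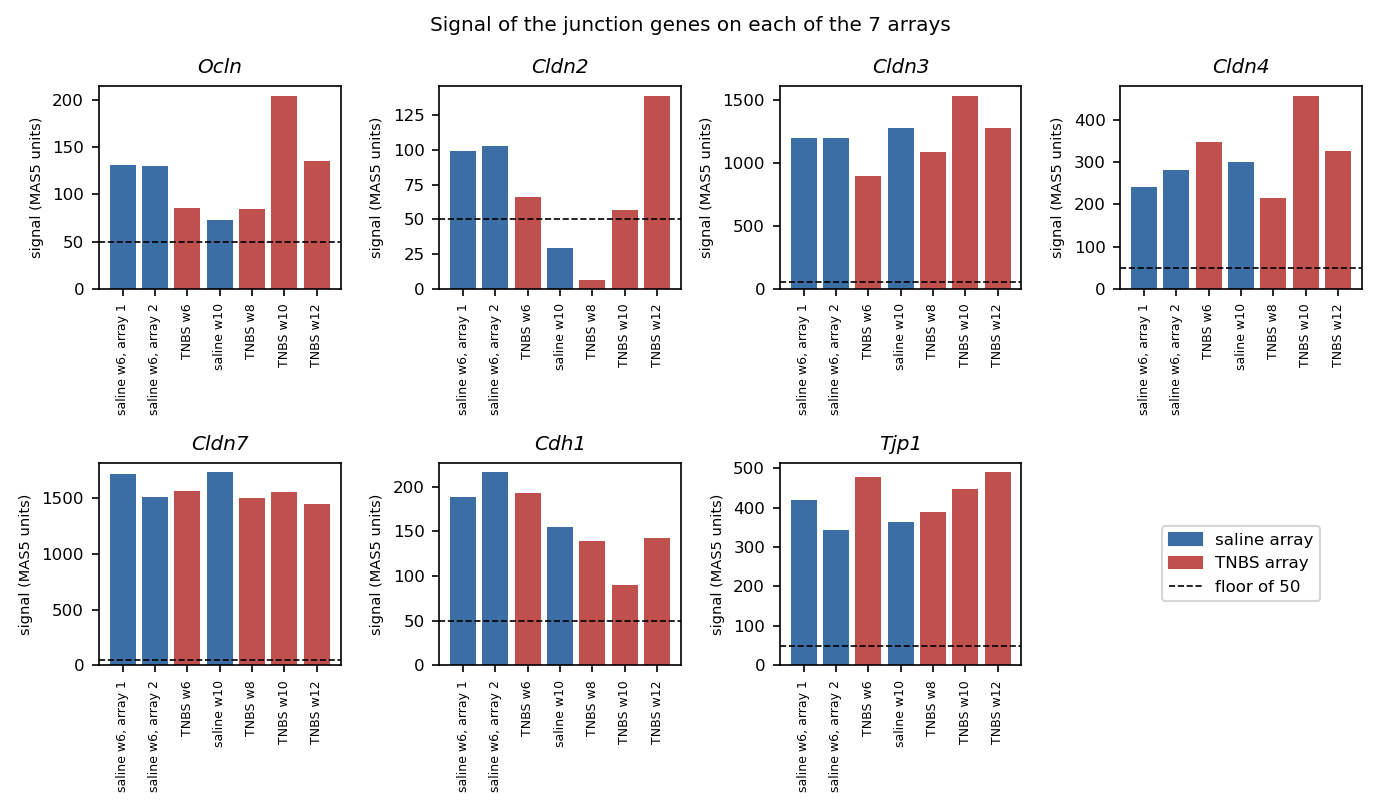
Signal of the 7 junction genes on each of the 7 arrays, with saline arrays in blue, TNBS arrays in red and the floor of 50 as a dashed line; the vertical scale differs between panels. Ocln was brightest in the TNBS-w10 pool (204.4) and Cldn2 in the TNBS-w12 pool (139.3), Cdh1 was dimmest in the TNBS-w10 pool (90.1), and Cldn7 stayed between 1448 and 1731.

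Occludin and claudin 2 had the widest ranges of the 7 genes. Ocln read 131.4 and 129.9 on the Saline-w6 arrays and 85 in the TNBS-w6 pool. In the later samples it read 72.7 in Saline-w10, 84.6 in TNBS-w8, 204.4 in TNBS-w10 and 135.3 in TNBS-w12. The TNBS-w10 pool was thus the highest of all arrays and the Saline-w10 pool the lowest, with the TNBS-w12 pool close to the Saline-w6 arrays. Against its matched saline pool Ocln was 1.54-fold lower at week 6, 1.16-fold higher at week 8, 2.81-fold higher at week 10 and 1.86-fold higher at week 12.

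How far arrays of the same RNA differ was taken from the Saline-w6 pair. Among the 200 genes nearest to Ocln in mean level, 95% differed by less than 0.67 on the log2 scale between those arrays. The differences of 1.49 at week 10 and 0.90 at week 12 lay outside this range, and those of -0.62 at week 6 and 0.22 at week 8 inside it. The range covers technical error alone.

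The size and the sign of the occludin differences depended on the control. Saline-w10 was itself 1.80-fold below Saline-w6, and the beta-actin end ratio, unlike that of Gapdh, separated the same early and late arrays; its part in the difference was not tested. Set against Saline-w6 the log2 difference was 0.65 at week 10, 0.05 at week 12 and -0.63 at week 8. Set against Saline-w10 the week 6 difference was 0.23. The sign thus turned at weeks 6 and 8, and at weeks 10 and 12 the differences from Saline-w6 lay inside the duplicate range. At week 10 the call of at least 2-fold was lost against Saline-w6.

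The promoters below are those of Ocln, Cldn4 and Cldn2, the 3 tight junction genes among the 7 whose levels spanned at least 2-fold. Ocln and Cldn4 were highest at week 10 and Cldn2 at week 12. The promoter set used here held entries for 6 of the 7 genes and none for Cdh1. For Ocln 1 of 2 starts is shown. Each holds 250 bases before and 50 bases after a RefSeq transcription start (GRCm38.p6), 5′ to 3′ on the gene's strand. Capitals mark matches to an E-box (CAGGTG or CACCTG), a GC box (GGGCGG or CCGCCC) or a TATA box (TATAAA or TTTATA), searched on both strands.
Ocln promoter, chr13:100552669-100552968, minus strand: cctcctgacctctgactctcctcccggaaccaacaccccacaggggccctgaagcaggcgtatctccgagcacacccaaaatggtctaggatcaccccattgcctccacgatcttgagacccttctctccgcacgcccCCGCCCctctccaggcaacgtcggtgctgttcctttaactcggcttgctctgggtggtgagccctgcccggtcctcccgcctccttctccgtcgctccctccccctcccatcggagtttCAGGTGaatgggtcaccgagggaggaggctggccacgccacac
Cldn4 promoter, chr5:134946885-134947184, minus strand: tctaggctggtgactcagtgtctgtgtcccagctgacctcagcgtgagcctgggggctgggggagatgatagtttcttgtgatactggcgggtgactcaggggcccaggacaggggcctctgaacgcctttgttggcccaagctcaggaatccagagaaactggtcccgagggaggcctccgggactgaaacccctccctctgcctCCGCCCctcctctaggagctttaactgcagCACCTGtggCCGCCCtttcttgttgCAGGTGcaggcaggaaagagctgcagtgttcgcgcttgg
Cldn2 promoter, chrX:139800558-139800857, plus strand: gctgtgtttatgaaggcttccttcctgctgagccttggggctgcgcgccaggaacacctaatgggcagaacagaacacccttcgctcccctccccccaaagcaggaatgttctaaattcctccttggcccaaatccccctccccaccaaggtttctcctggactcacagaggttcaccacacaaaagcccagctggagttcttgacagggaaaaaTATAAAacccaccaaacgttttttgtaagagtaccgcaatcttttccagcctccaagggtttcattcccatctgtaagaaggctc
The E-box is the motif of the Snail and Zeb repressors, which are known to act on the Cdh1 and Ocln genes. Ocln has an E-box 8 bases after its start and a GC box beginning 112 bases before it. The Ocln start not shown has E-boxes at -213 and -68 and a GC box at -43. Both Ocln windows overlap, and the E-box at -213 is the same site as the E-box 8 bases after the start shown. Cldn4 has an E-box on each side of its start, at -14 and 12, and GC boxes at -44 and -5. Cldn2 has neither motif in this window and has a TATA box at -35. Over the 32851 mouse promoters of the same length, 20.2% held the E-box, 35.7% the GC box and 13.6% the TATA box. Of the 8 promoters of the 6 genes with an entry, 5 held the E-box, 6 the GC box and 1 the TATA box. By gene, 4 of the 6 held the E-box, 5 the GC box and 1 the TATA box. Cldn3 and Cldn7, which varied less, were among the genes with an E-box. Of the repressor genes, Snai1 read 29.4 or less on every array. Snai2 was between 91.6 and 162.8, with its highest value in the TNBS-w6 pool, and Zeb1 was between 87.2 and 119.7. These matches describe letters only, and binding was not measured.

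Claudin 2, which forms a pore for small cations and water and is found in leaky epithelia, was a weak signal throughout. Cldn2 read 99.2 and 102.8 on the Saline-w6 arrays and 66.4 in the TNBS-w6 pool. It read 29.4 in Saline-w10 and 6.2 in TNBS-w8, both under the floor, then 57.1 in TNBS-w10 and 139.3 in TNBS-w12. The week 12 pool was the only TNBS pool above the Saline-w6 arrays. Cldn2 was 1.52-fold lower at week 6, at least 1.14-fold higher at week 10 and at least 2.79-fold higher at week 12 than its matched saline pool, and no fold is given for week 8. The week 12 difference lay outside the range of duplicate arrays for genes of this level (0.75 on the log2 scale), and the week 6 difference inside it. As with occludin, Saline-w10 was at least 2.02-fold below Saline-w6. Against Saline-w6 the week 12 log2 difference was 0.46, the week 10 difference -0.82 and the week 8 difference -1.01, the last as a bound. Against Saline-w10 the week 6 difference turned to 0.41, a bound as well. With the matched Saline-w6 pool and a floor of 100 the week 6 difference was -0.020. That floor raised both the TNBS-w6 value of 66.4 and the Saline-w6 value of 99.2, so this setting cannot measure the difference.

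**Figure D2:**
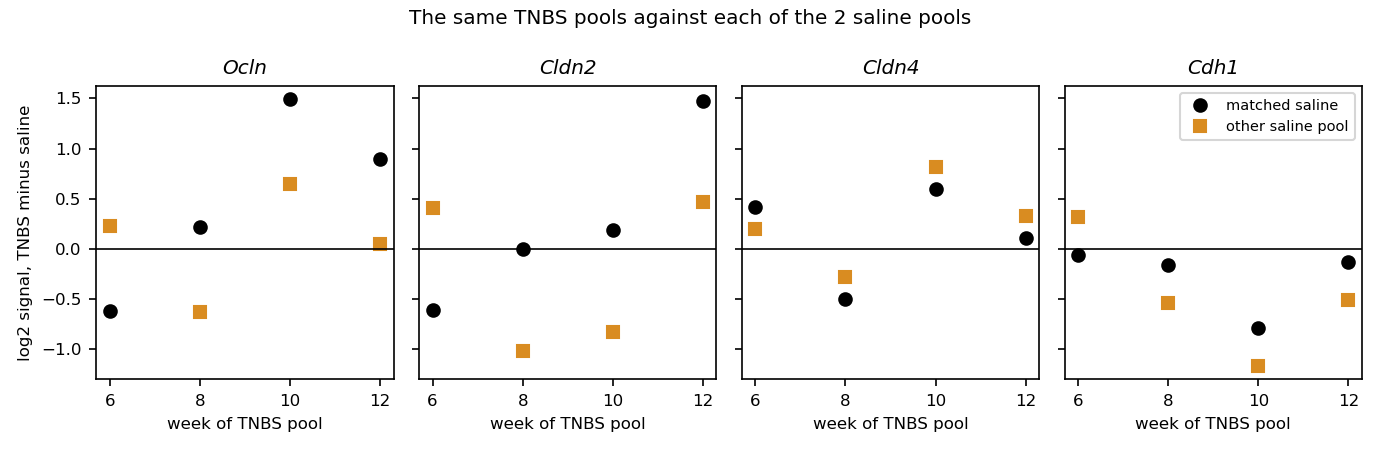
Log2 difference of the TNBS pools of weeks 6, 8, 10 and 12 from their matched saline pool (black circles) and from the other saline pool (orange squares), for the 4 genes whose pool levels spanned at least 2-fold. For Ocln the week 10 value moved from 1.49 to 0.65 and for Cldn2 the week 12 value from 1.48 to 0.46, while the week 10 values of Cldn4 (0.60 and 0.82) and Cdh1 (-0.78 and -1.16) kept their sign.

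Claudin 4, a sealing claudin, was highest in the same pool as occludin. Cldn4 read 239.8 and 280.9 on the Saline-w6 arrays and 346.7 in TNBS-w6. It read 300.9 in Saline-w10, 213.7 in TNBS-w8, 456.7 in TNBS-w10 and 325.4 in TNBS-w12. The TNBS-w10 pool was the highest array and TNBS-w8 the lowest. Cldn4 was 1.34-fold higher at week 6, 1.41-fold lower at week 8, 1.52-fold higher at week 10 and 1.08-fold higher at week 12. For genes of its level 95% of duplicate differences lay under 0.47 on the log2 scale, which the week 8 (-0.49) and week 10 (0.60) differences passed. At week 8 the difference was inside that range with the other saline pool (-0.28), with equal array medians (-0.32) and with quantile normalization (-0.46).

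Claudin 3, a sealing claudin whose gene lies beside Cldn4 on chromosome 5 with no other protein-coding gene between them, varied less. Its probe set read 1195 and 1193 on the Saline-w6 arrays and 895.9 in TNBS-w6, the lowest value. It read 1279 in Saline-w10, 1088 in TNBS-w8, 1532 in TNBS-w10 and 1277 in TNBS-w12. Cldn3 was 1.33-fold lower at week 6, and this difference of -0.41 passed the duplicate range of 0.37 for its level. The week 8, week 10 and week 12 differences of -0.23, 0.26 and -0.00 did not. A second, dimmer probe set of Cldn3, named as one whose probes match related sequences, read 133.5 and 134.1 in Saline-w6, 92.7 in TNBS-w6 and 144.1 in Saline-w10. It read 114.4, 83.2 and 99.5 in the TNBS pools of weeks 8, 10 and 12. Both probe sets were lower at week 6 (-0.41 and -0.53), and they went opposite ways at week 10 (0.26 and -0.79), so the direction of Cldn3 at week 10 is not settled.

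Claudin 7, which is also found along the sides of intestinal epithelial cells below the junction, was the steadiest of the 7. Cldn7 read 1714 and 1511 on the Saline-w6 arrays, 1566 in TNBS-w6, 1731 in Saline-w10, and 1496, 1555 and 1448 in the later TNBS pools. All 4 TNBS pools lay below both saline pool means, which was true of 9.01% of the 4316 genes. The differences of 1.03-fold to 1.20-fold were inside the duplicate range, and the TNBS-w6 array lay between the Saline-w6 arrays. Its only probe set also has a name that marks probes shared with related sequences.

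ZO-1 went the other way by a small amount. Tjp1 read 419.4 and 343.8 on the Saline-w6 arrays, 478.7 in TNBS-w6, 363.8 in Saline-w10, and 387.9, 447.2 and 489.9 in the TNBS pools of weeks 8, 10 and 12. All 4 TNBS pools lay above both saline pool means, as did those of 6.39% of genes, but the TNBS-w8 array lay between the Saline-w6 arrays. Tjp1 was 1.26-fold, 1.07-fold, 1.23-fold and 1.35-fold higher in order of time, each inside the duplicate range of 0.44 on the log2 scale. A second probe set of Tjp1 read 7.3 or less on every array and gives no information.

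E-cadherin was lowest where occludin was highest. Cdh1 read 188 and 216.3 on the Saline-w6 arrays and 193.2 in TNBS-w6. It read 155 in Saline-w10, 139.2 in TNBS-w8, 90.1 in TNBS-w10 and 142.1 in TNBS-w12. The TNBS-w10 pool was the lowest array. Every week 6 array read above every later array, the same split as in the beta-actin end ratio. The part of that split in the Cdh1 values was not tested. Cdh1 was 1.72-fold lower at week 10, a log2 difference of -0.78 against a duplicate range of 0.59 for its level. At weeks 6, 8 and 12 it was 1.04-fold, 1.11-fold and 1.09-fold lower, inside that range. With Saline-w6 as the control the week 10 difference was -1.16. When the 6 pools were put in order for each gene, the step from TNBS-w8 down to TNBS-w10 in Cdh1 (0.63) was the only 1 between neighbouring pools, over the 7 genes, that passed the duplicate range.

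**Figure D3:**
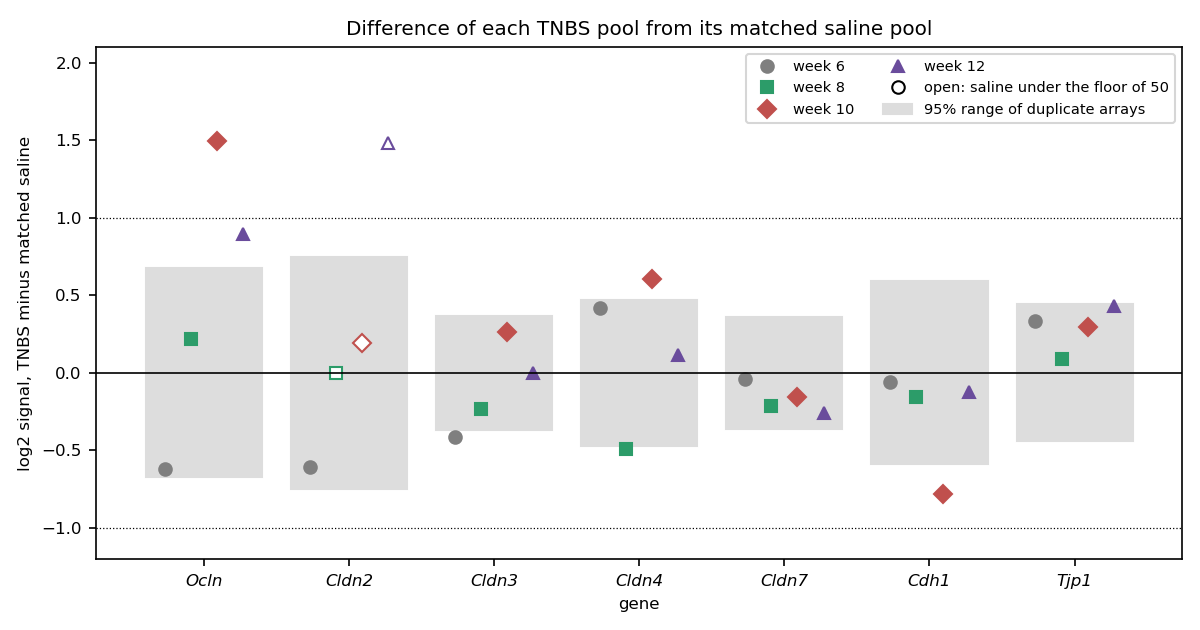
Log2 difference of each TNBS pool from its matched saline pool for the 7 genes, by week; open symbols mark a saline value under the floor, dotted lines mark 2-fold, and grey boxes mark the 95% range of differences between both Saline-w6 arrays among the 200 genes nearest in level. The points outside the boxes are Ocln at weeks 10 and 12, Cldn2 at week 12, Cldn4 at weeks 8 and 10, Cdh1 at week 10 and Cldn3 at week 6.

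Counted over the 7 genes, none was at least 2-fold different at week 6 or week 8, where 3.54% and 3.31% of all genes were. At week 10 Ocln alone was at least 2-fold higher, against 0.834% of all genes, and none of the 7 was at least 2-fold lower, against 0.649%. At week 12 Cldn2 alone was, against 0.718% of all genes. Between both saline pools 1 of the 7, Cldn2, was at least 2-fold lower in Saline-w10, against 0.95% of all genes, and between the duplicate arrays 0.718% of genes differed at least 2-fold either way. At 1.5-fold the counts were 2 lower at week 6 (Ocln and Cldn2), none at week 8, 2 higher (Ocln and Cldn4) and 1 lower (Cdh1) at week 10, and 2 higher (Ocln and Cldn2) at week 12. Among all genes 5.95% were at least 1.5-fold lower at week 6, 4.89% higher and 6.28% lower at week 10, and 4.84% higher at week 12. Either way, the share of all genes was 13.5%, 16.3%, 11.2% and 10.2% in order of time. Between the saline pools 2 of the 7 were at least 1.5-fold lower in Saline-w10, against 5.03% of genes. All 3 later TNBS pools lay above Saline-w10 for Ocln and Tjp1, as for 18.2% of genes, and below it for Cdh1 and Cldn7, as for 24% of genes. The median log2 difference of the 7 genes was -0.06, -0.16, 0.26 and 0.11, beside -0.02, -0.07, -0.00 and 0 for all genes. The week 10 median is the value of the brighter Cldn3 probe set, and it was 0.15 with the probe sets of each gene averaged. Of 28 differences, 7 genes at 4 times, 7 passed the duplicate range, 4 upward and 3 downward. By time these were 1, 1, 3 and 2 of the 7 genes, where 15.5%, 19.2%, 12.0% and 12.0% of all genes passed their own.

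The pools allow 3 tests in limma, which treat TNBS pools of different times as replicates and adjust over the 4316 genes by the Benjamini-Hochberg method. The pooled test compared the 4 TNBS pools with both saline pools, with the control set (week 6 or later) as a covariate. Its effect is thus a difference within the control sets and not a plain difference of pool means. In it limma called none of the 7 genes and 0% of all genes at an adjusted p under 0.05. In the same limma test 5.10% of all genes had an unadjusted p under 0.05. Tjp1 came nearest, with a log2 effect of 0.30 ± 0.17 (SE) and an adjusted p of 0.887 (unadjusted 0.113). Comparing the 3 later TNBS pools with Saline-w10, limma again called none of the 7 and 0% of all genes, and 1.83% had an unadjusted p under 0.05. Ocln had a log2 effect of 0.87 ± 0.51 (SE) with an unadjusted p of 0.140 and Cldn2 one of 0.56 ± 0.60. The late effect of Cdh1 was -0.35 ± 0.36 and that of Cldn7 -0.21 ± 0.21, with limma adjusted p-values of 1. The test of the week 6 effect against the later effect called none of the 7 and 0% of all genes, with 1.85% at an unadjusted p under 0.05. That difference was -1.49 ± 0.80 for Ocln and -1.16 ± 0.97 for Cldn2, with limma adjusted p-values of 0.999. None of the 7 had an unadjusted p under 0.05 in any of the 3 limma tests as run here. Of the alternatives, averaging probe sets gave Cldn3 a pooled effect of -0.35 with a limma p of 0.0385 (adjusted 0.884). Without TNBS-w8 the limma p of Ocln was 0.0232 in the late test (1.19, adjusted 0.847) and 0.0233 for the early minus late difference (-1.81, adjusted 0.800). With SE of this size, the tests do not show that a gene was alike in TNBS and saline.

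**Figure D4:**
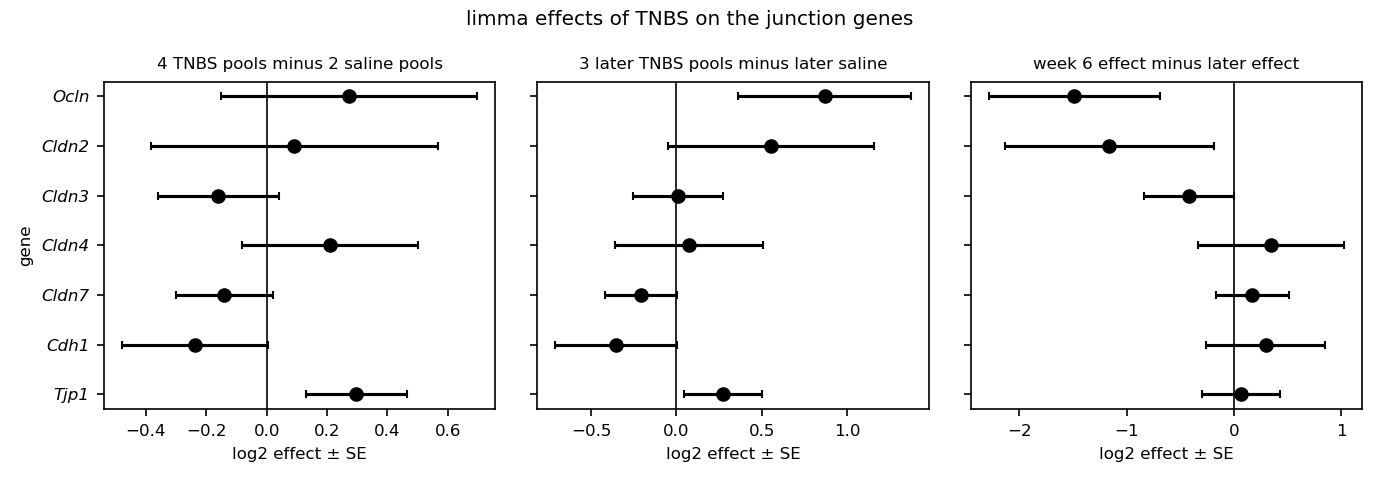
limma log2 effects with their SE for the 7 genes, for the 4 TNBS pools against both saline pools (left), the later TNBS pools against Saline-w10 (middle), and the week 6 effect minus the later effect (right). The effects on the left were fitted with the control set (week 6 or later) as a covariate. Every adjusted p lay above 0.05, and the largest effects were those of Ocln, at 0.87 late and -1.49 for the difference between early and late.

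Around the 7 genes, 101 further genes of tight junctions, adherens junctions, desmosomes, the actomyosin ring and the transcription factors of epithelial junction genes were listed, of which 62 were on the array and 43 reached a signal of 100. At least 1.5-fold, 1 was higher and 2 lower at week 6, 1 higher and 4 lower at week 8, 3 higher and 3 lower at week 10, and 2 higher and none lower at week 12. These are 6.98%, 11.6%, 14.0% and 4.65% of the 43, beside 13.5%, 16.3%, 11.2% and 10.2% of all genes. Their medians were -0.09, -0.06, 0.05 and 0.06 on the log2 scale. None of the 43 was called or had an unadjusted p under 0.05 in any of the 3 limma tests. The other claudins were mostly dim: Cldn1, Cldn5, Cldn6 and Cldn11 read 69.6 or less on every array.

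Cldn8, a sealing claudin of the distal colon, was the only further claudin that reached the minimum. It read 228.7 and 354.9 on the Saline-w6 arrays, 264.4 in TNBS-w6 and 176.6 in Saline-w10, then 125.4, 111.1 and 262.6 in the later TNBS pools. It was 1.59-fold lower at week 10 and 1.49-fold higher at week 12, but the Saline-w6 arrays themselves stood well apart.

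Of the other tight junction membrane proteins, 3 of 4 on the array reached the minimum. Cxadr, an adhesion protein of the junction and the receptor of coxsackie and adenoviruses, read 347.3 in Saline-w10 and 605.4 in TNBS-w10, 1.74-fold higher, against 327.3 and 362.7 in the TNBS pools of weeks 8 and 12. F11r, which encodes junctional adhesion molecule A, was 1.26-fold lower at week 6 and 1.17-fold higher at week 12. Crb3, a polarity protein of the apical membrane, was 1.20-fold lower at week 6 and 1.12-fold higher at week 10.

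Of the scaffold and polarity genes, Prkcz, an atypical protein kinase C of the polarity complex, was 1.79-fold lower at week 6 (107.9 against 169.2 and 220.2) and 1.44-fold higher at week 12 (232.9 against 161.5). Pard3, the scaffold of that complex, was 1.53-fold higher at week 10 and 1.44-fold at week 8, at signals of 56.7 to 103 over the arrays. Ybx3, a ZO-1 partner that binds DNA and RNA, differed 1.24-fold or less at weeks 6 and 12. Arhgef2, an activator of RhoA found at tight junctions, was 1.42-fold lower at week 8, 1.18-fold higher at week 10 and 1.25-fold lower at week 12. All 4 were above saline at week 10, with a median of 0.36.

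**Figure D5:**
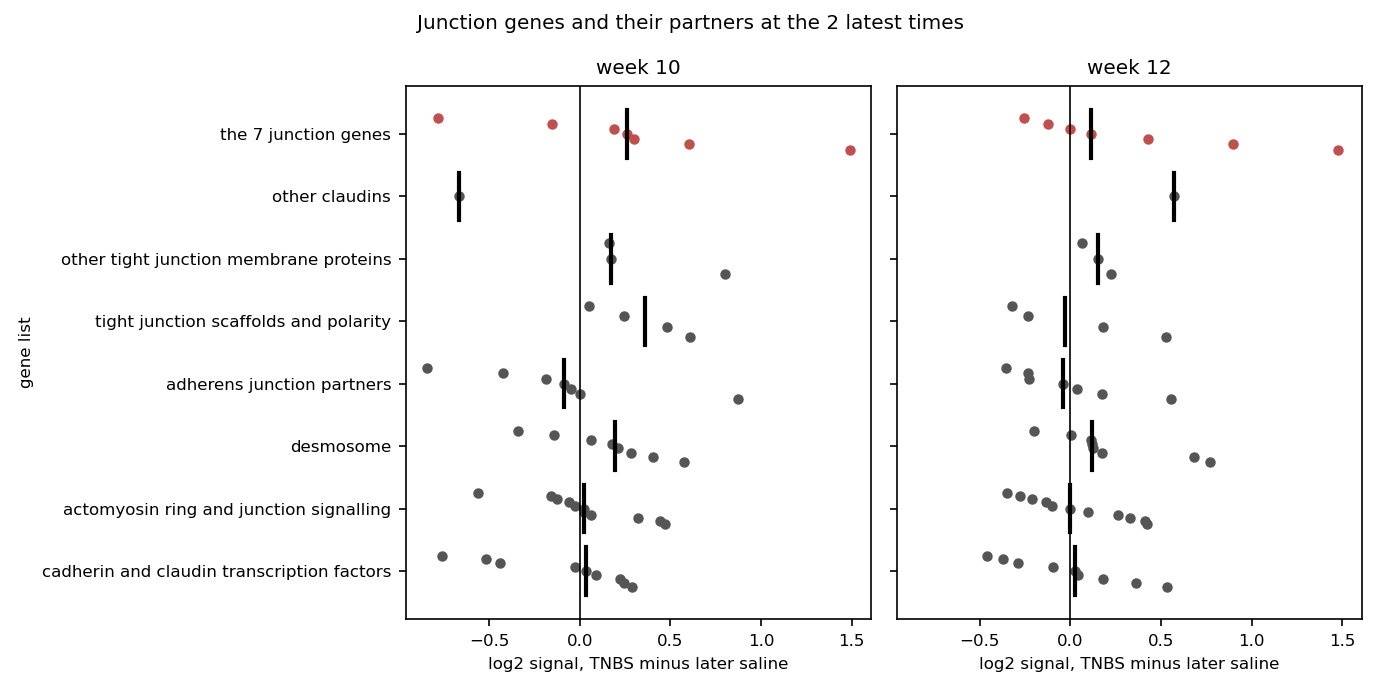
Log2 difference of the TNBS-w10 (left) and TNBS-w12 (right) pools from Saline-w10 for the 7 junction genes (red) and the further junction genes by list (grey), each point a gene and each black bar a list's median. At week 10 the median was 0.26 for the 7 genes (0.15 with probe sets averaged), 0.36 for scaffolds and polarity genes and -0.09 for adherens junction partners.

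Among the partners of E-cadherin 2 of 7 were above saline at week 10, with a median of -0.09. Jup, the plakoglobin shared by adherens junctions and desmosomes, read 333.4 in Saline-w10 and 610.4 in TNBS-w10, 1.83-fold higher, and was 1.47-fold higher at week 12, but its Saline-w6 arrays read 512.2 and 368.2. Cdh3, P-cadherin, read 109.4 in Saline-w10 and 61 in TNBS-w10, 1.79-fold lower, while its other values lay between 85.1 and 130.8. Ctnnb1, beta-catenin, was 1.34-fold lower at week 10 and 1.28-fold lower at week 12. Ctnna1, alpha-catenin, which links the complex to actin, was 1.13-fold lower at week 6 and 1.19-fold higher at week 8. Ctnnd1, p120 catenin, which keeps cadherins at the surface, was 1.19-fold lower at week 8, and Nectin2, an adhesion protein of the immunoglobulin family, 1.26-fold lower. Vcl, vinculin, which joins the complex to actin, was 1.18-fold lower at week 12. Both classical cadherins that reached the minimum, Cdh1 and Cdh3, were thus lowest in the same pool.

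Of the desmosome genes 6 of 8 were above saline at week 10 and 7 of 8 at week 12, with medians of 0.19 and 0.12. Dsg2, the desmosomal cadherin of simple epithelia, read 1089 in Saline-w10, 1190 in TNBS-w8, 1439 in TNBS-w10 and 1854 in TNBS-w12, and was 1.32-fold and 1.70-fold higher at weeks 10 and 12. Pkp1, a plakophilin, was 1.49-fold and 1.61-fold higher at the same times. Pkp2, another plakophilin, was 1.60-fold higher and Dsc2, a desmocollin, 1.41-fold higher at week 6, and Dsc2 was 1.67-fold higher at week 8, where Pkp3 was 1.24-fold higher. Of the plakins, which tie desmosomes to keratin, Dsp was 1.20-fold lower at week 6 and 1.15-fold lower at week 12, and Ppl 1.27-fold lower at week 10. The probe sets of Pkp1, Pkp2 and Dsc2 are named as shared with related sequences.

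In the actomyosin list, whose proteins tighten the ring below the junction, Myh14, a non-muscle myosin heavy chain, was 1.59-fold lower at week 6 and 1.36-fold higher at week 10. Cttn, cortactin, was 1.38-fold lower at week 6 and Ezr, ezrin of the apical membrane, 1.33-fold lower, and Ezr was 1.48-fold lower at week 10 and 1.28-fold at week 12. Myh9, another such heavy chain, was 1.39-fold higher at week 10. Actn1, which crosslinks actin, was 1.42-fold higher at week 8, from a probe set that is also named as shared with related sequences. Rhoa, the GTPase that turns on contraction, was 1.26-fold higher at week 8 and 1.34-fold at week 12, where its kinase Rock1 was 1.33-fold higher. Of the transcription factors, Gata4 was at least 2.15-fold lower, Klf5 1.76-fold and Hnf4a 1.73-fold lower at week 8. Hnf4a, a nuclear receptor that drives epithelial genes, was 1.45-fold higher at week 12. Gata6 was 1.37-fold lower at week 6 and 1.43-fold lower at week 10, where Klf4 was 1.36-fold lower. The median of that list was -0.38 at week 8 and lay between -0.09 and 0.03 at the other times.

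Markers of the cells in the tissue were read beside these values. Of 8 general epithelial markers, 2 were above saline and 6 below at week 10, with a median of -0.11 and none 1.5-fold different, and their summed signal was 18475 in TNBS-w10 against 20545 in Saline-w10. At week 12 all 8 were below saline, with a median of -0.18, and the sum was 16671. Saline-w10 itself was above Saline-w6 for 7 of the 8 markers (median 0.13), and the Saline-w6 arrays summed to 19371 and 18090. The part of epithelial content in Ocln at week 10 and Cldn2 at week 12, both above saline, was not tested. At week 6, where Ocln, Cldn2 and Cldn3 were low, 3 of 9 absorptive colonocyte markers were at least 1.5-fold lower (median -0.52, beside 0.53 for the later against the earlier saline pool). The leukocyte markers were higher there, 6 of 7 at least 1.5-fold, with a summed signal of 2671 against 1259 and 1381. So were proliferating crypt cell markers, 7 of 7 above saline and 4 at least 1.5-fold (median 0.86), and fibroblast markers, 7 of 8 above saline and 3 at least 1.5-fold (median 0.53). The part of these cell types in the week 6 values was not tested.

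At week 10, where Cdh1 and Cdh3 were low, 3 of 7 proliferating crypt cell markers were at least 1.5-fold lower (median -0.36). Of the squamous epithelium markers, 3 of 10 reached the minimum, and Krt4 and Lor of these were lowest in that pool, at 67.4 and 51.4. The third, Sprr1a, read 124.5 there against 118.9 in Saline-w10 and was lowest in TNBS-w12, at 88.6. Of the other squamous markers, Krt5, Krt13, Krt14, Krt15, Sprr3, Trp63 and Ivl read 44.3 or less on every array. Their part in the cadherin values was not tested. At week 8, when Cldn4 was low, exocrine pancreas markers were high, with 6 of 7 at least 2-fold higher (median 2.70) and a summed signal of 8753 against 2277, and 5 of 7 were also at least 2-fold higher at week 6, when Cldn4 was above saline. Their part in the Cldn4 values was not tested.

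For the 4 genes whose levels spanned at least 2-fold (Ocln 2.81-fold, Cldn2 at least 2.79-fold, Cdh1 2.24-fold and Cldn4 2.14-fold, a span that 21.4% of all genes reached), the genes with the most similar pattern were sought by Pearson's r of log2 levels over the 6 pools. The candidates were 914 genes, those with such a span less the gene itself and 9 with a clone or predicted gene symbol. Yipf4, Tle5 and Polr2a were most like Ocln, at r = 0.924, 0.916 and 0.909. Commd9, Pelo and Dpep3 were most like Cdh1 (0.961, 0.957 and 0.957). Rps13, Prkar2a and Adam28 were most like Cldn2 (0.951, 0.942 and 0.917), but Rps13 was under the floor on 5 of 7 arrays and Adam28 on 3, and the Saline-w6 arrays read 98.9 and 17.1 for Rps13 and 160.7 and 73.3 for Prkar2a. Cryz, Zcchc7 and Igsf10 were most like Cldn4 (0.932, 0.923 and 0.913). Between 0.328% and 1.53% of the candidates had r above 0.9 with each gene. Among the members themselves r was 0.68 for Ocln with Cldn3, 0.60 for Ocln with Cldn4, -0.59 for Ocln with Cdh1 and -0.74 for Cdh1 with Cldn3. With the second probe set of Cldn3 the sign turned, to -0.57 with Ocln and 0.54 with Cdh1. With only 6 pools, these values are descriptions.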

How the data were processed

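Colon RNA of 6 pools was hybridised to 7 Affymetrix mouse arrays. Per the labels, the deposited intensity values are signals that the authors made with MAS5, scaled to a target of 150; a probe set's spread over its probes is not kept in them. Here 66 control probe sets were dropped, 10833 of the 12488 probe sets had 1 gene symbol (396 several, 1193 none) in an old platform annotation, and each of 8251 genes was read from its brightest probe set. Signals under a floor of 50 were raised to it, log2 was taken, both Saline-w6 arrays were averaged as 1 pool, and 4316 genes with at least 100 in a pool were kept. Matched comparisons carry no test. Models across all genes used limma 3.58.1 in R 4.3.3 with Benjamini-Hochberg adjustment and 3, 2 and 2 residual degrees of freedom. They were run on simulated data with the same SD for every gene and 200 genes changed. Of genes changed 2-fold, the pooled, late and early minus late tests recovered 86%, 50.5% and 0%. Of genes changed 4-fold, they recovered 100%, 100% and 83%. In the data the SE differed between genes, with 0.16 for Cldn7 and 0.47 for Cldn2 in the pooled test. The simulated shares therefore do not carry over to single genes such as Ocln or Cldn2. Named genes were the 7, and per list the 3 with the largest difference at each time, with signals of a few others given as levels. The 7 genes and the lists were chosen with earlier results of these data known. Alternatives covered the floor, filter, scaling, probe set rule, control pool and each array left out. The number of arrays limits the precision.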

Additional observations from a re-analysis of the deposited data

Results flagged for a closer look

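Ocln and Cldn2 stood on opposite sides of saline at different times, each by at least 1.5-fold. For Ocln the log2 difference from matched saline was -0.62 at week 6, 1.49 at week 10 and 0.90 at week 12. For Cldn2 it was -0.60 at week 6 and 1.48 at week 12, the latter a lower bound. The pattern rests on a different saline pool at week 6: against Saline-w10, the control of the later times, the week 6 difference was 0.23 for Ocln and 0.41, as a bound, for Cldn2. The limma test of the week 6 effect against the mean later effect gave unadjusted p-values of 0.115 for Ocln and 0.279 for Cldn2, and an adjusted p of 0.999 for each.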

How the results depend on the processing

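No paired analysis was possible because the groups compared share fewer than 2 replicate numbers. The number of the 7 genes at least 2-fold different was 0 at week 6 in all 12 alternatives. At week 8 it went from 0 to 1 (Cldn2) with the other saline pool as the control. At week 10 it was 1 in all 10 alternatives, but with the other saline pool that gene was Cdh1 in place of Ocln. At week 12 it went from 1 to 0 with a floor of 100, with a filter on the mean of the pools, which removes Cldn2, and with the other saline pool. Ocln at week 10 was 1.03 with a floor of 100 and 0.65 with the other saline pool. The value of 1.03 is a lower bound, because that floor raised the Saline-w10 value of 72.7. It raised the Saline-w10 value of Cldn2 as well, so the week 12 difference of Cldn2 under it is also a lower bound. Of 262 alternative values of single differences, 22 moved by 0.29 or more, the SD of the log2 differences between duplicate arrays. Making array medians equal shifted the median of all genes to 0.11 at week 8 and 0.13 at week 10, and gave 116 genes at least 2-fold higher and 32 lower at week 8 (66 and 77 otherwise) and 66 and 17 at week 10 (36 and 28 otherwise). Over all alternatives the genes at least 2-fold higher and lower numbered 64 to 135 and 20 to 71 at week 6, 44 to 142 and 19 to 139 at week 8, 15 to 77 and 7 to 68 at week 10, and 10 to 57 and 14 to 87 at week 12. Without the filter limma called 17, 182 and 489 genes in the pooled, late and early minus late tests, where 2412 of 8251 genes held the same floored value in all pools; a floor of 100 gave 69 and 189 in the last pair, and leaving out TNBS-w12 gave 2 in the pooled test. No limma test called any of the 7 genes in 45 alternatives, the lowest adjusted p being 0.743, and 9 of 291 effects changed sign. The late effect of Cldn3 became -0.27 with the mean of its probe sets and -0.057 with quantile normalization, and the early minus late difference of Tjp1 became -0.089 with equal array medians. With 1 array left out, the pooled effect ranged from -0.20 (without TNBS-w12) to 0.56 for Cldn2 and from -0.24 to 0.0091 (without TNBS-w6) for Cldn3. The late effect ranged from -0.12 to 0.13 for Cldn3 and from -0.19 to 0.36 for Cldn4, lowest without TNBS-w10 in each. The early minus late difference of Tjp1 ranged from -0.082 to 0.20, below 0 without the second Saline-w6 array and without TNBS-w8. The cause of these sign changes was not tested.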
